A study of Mus musculus with 13 samples.

Results

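The genes described here encode the proteins of the cytosolic ribosome. They were chosen by name from the gene list of a single-cell RNA table of mouse lung: symbols that begin with Rpl or Rps and a digit, together with Rplp0, Rplp1, Rplp2 and Rpsa, without the Rps6k kinases and without processed pseudogene symbols that end in -ps and a number. The rule took 86 of 31053 genes. Of these, 77 are subunits found in nearly every ribosome, 46 of the large and 31 of the small subunit. The other 9 are relatives or near copies of a subunit gene or share its stem by name (Rpl3l, Rpl7l1, Rpl10l, Rpl22l1, Rpl36al, Rpl39l, Rps27l, Rps27rt and Rps19bp1). The rule used no measured value.

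A ribosome holds a single copy of most of its proteins, and the genes that encode them are scattered over the chromosomes. Their mRNAs share a short pyrimidine tract at the 5′ end, the terminal oligopyrimidine motif, through which mTORC1 and LARP1 control their translation and stability together. Among blood cells, resting lymphocytes are known for a high proportion of ribosomal protein mRNA, whereas ripe granulocytes and red cells have shut down most ribosome production.

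The study modelled emphysema in C57BL/6 mice by weekly instillation of porcine pancreatic elastase (PPE) into the trachea. The labels give 4 single-cell samples of whole lung, titled Asthma (an ovalbumin model), Control, PPE-emphysema and PPE-recovery, each from 1 mouse by the study's methods. By the study's supplement, PPE-recovery mice were given PPE in 1 instillation only, not weekly. The series also lists 9 numbered samples, 3 for each of the labels Acute injury, Con and emphysema, which were not analysed here. The deposited single-cell table holds 7 libraries, told apart by the number at the end of each cell barcode, and no source ties a library to a sample. The table was therefore treated as 1 sample: values are given per library, no library is assigned to a treatment and no p-value is given. The 95% intervals are exact and cover counting error only. They are printed for some of the values, and values printed without one carry counting error too.

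Of 37344 barcodes, 31844 passed the filters, with at most 10% of their unique molecular identifiers (UMIs) from mitochondrial genes. They held 241622187 UMIs, between 21947484 and 58419299 per library, with a median of 6377.5 per cell. Libraries 4, 5 and 6 stood apart from the other 4. Globin genes took 35.6% to 41.6% of their UMIs, against 0.041% or less elsewhere, and Sftpc, the surfactant protein of alveolar type 2 cells, had 0, 0 and 2 UMIs in them, against 20228 to 358233 in libraries 1, 2, 3 and 7, although the labels of all the single-cell samples name lung. Libraries 4, 5 and 6 also held exactly 3000, 5000 and 5000 barcodes, and their shallowest kept cells had 5735, 3439 and 3946 UMIs, against 304 to 501 in the others. Between 29 and 74 barcodes of each library also occurred in another. Cells were clustered without the ribosomal protein genes, and 35 of 42 clusters were given to 20 classes by marker genes, written here as "T cell-like" and so on.

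Ribosomal protein genes held 33305385 of the UMIs of the kept cells, a share of 13.8%. The share was 15.02%, 14.7%, 15.6% and 14.5% in libraries 1, 2, 3 and 7, and 10.5%, 11.0% and 13.9% in libraries 4, 5 and 6. The order turned when mitochondrial genes, globin genes and the nuclear RNA Malat1 were taken out of the denominator. The share of the remaining UMIs was then 16.2%, 15.8%, 16.7% and 15.5% in libraries 1, 2, 3 and 7, and 18.1%, 20.4% and 23.3% in libraries 4, 5 and 6.

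T cell-like cells had the highest share of the 20 classes and erythroid cell-like cells the lowest. In T cell-like cells the members took 32.5% of UMIs (interval 32.5 to 32.6, 1250 cells), with 33.8% in the median cell. The libraries gave 30.4%, 36.1%, 38.2%, 35.2%, 26.9%, 31.6% and 30.2% in the order 1 to 7. No other class reached this level over all cells, although single libraries of B cell-like cells did overlap with it. Of the 1250 cells, 941 belonged to cluster 11, led by genes of naive T cells. Unnamed cluster 14, with T cell markers and a share of 22.4%, was not part of the class.

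B cell-like cells followed with the type 1 dendritic cell-like class. B cell-like cells had 23.8% (4988 cells). Their values fell into separate ranges, 27.4%, 32.8%, 29.8% and 29.99% in libraries 1, 2, 3 and 7 and 20.1%, 20.8% and 22.5% in libraries 4, 5 and 6. Globin transcripts made up 28.96%, 8.39% and 8.86% of the UMIs of these cells in libraries 4, 5 and 6. With globin, mitochondrial genes and Malat1 left out, library 4 came to 31.1%, inside the range of 30.4% to 36.2% of libraries 1, 2, 3 and 7, whereas libraries 5 and 6 stayed lower at 25.02% and 27.2%. The part of the globin transcripts and of the depth limits in this gap was not tested.

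Antigen-presenting cells and monocytes took the middle of the order. Type 1 dendritic cell-like cells had 25.04% (355 cells), with 19.6%, 27.9%, 24.9% and 23.4% in libraries 1, 2, 3 and 7. In each of these libraries B cell-like cells were the higher class, by 4.93 to 7.77 percentage points, opposite to the order of the sums, in which 1599 and 1906 of the 4988 B cell-like cells came from libraries 5 and 6. Dendritic cell-like cells, a cluster with markers of mature and of conventional type 2 dendritic cells, had 21.0% and plasmacytoid dendritic cell-like cells 19.0%. Classical monocyte-like cells had 17.7%, from 16.5% in library 5 to 20.3% in library 2, and the nonclassical monocyte-like class 15.5%, from 11.9% in library 5 to 17.9% in library 3. The classical class was the higher one in all 7 libraries. NK cell-like cells, with 17.0% (14.4% to 23.5% over 6 libraries), did not differ from classical monocyte-like cells beyond the spread of libraries, being the lower class in 5 of 6.

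Macrophages and structural cells had lower shares. C1q macrophage-like cells had 15.3%, with 15.3%, 15.9%, 15.7% and 13.2% in libraries 1, 2, 3 and 7. Alveolar macrophage-like cells had 11.1% (2965 cells), with 10.3%, 11.4%, 11.8% and 10.4% in the same libraries, and these macrophage classes did not overlap. Fibroblast-like and smooth muscle cell or pericyte-like cells had 11.7% each, endothelial cell-like cells 9.89%, alveolar type 2 cell-like cells 9.87%, ciliated cell-like cells 8.82% and club cell-like cells 8.10%. The values of the last pair moved with the processing, from 6.45% to 16.1% in club cell-like and from 5.20% to 10.6% in ciliated cell-like cells. Fibroblast-like and alveolar macrophage-like cells changed places between libraries, each being higher in 2 of 4.

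Neutrophil-like, eosinophil-like and erythroid cell-like cells stood at the foot of the order. The basophil or mast cell-like class did not share this place. It had 16.4% (90 cells), with 15.2% in library 1, the single library with at least 30 of its cells. Neutrophil-like cells had 6.25% (6.24 to 6.26, 2565 cells), with 6.32%, 7.42%, 7.11%, 6.16%, 5.23%, 6.94% and 4.30% in libraries 1 to 7. Eosinophil-like cells had 5.41% (5.30 to 5.52, 247 cells), with 7.02% in the 30 cells of library 1 and 4.79% in the 211 cells of library 7. Over the summed cells they lay below neutrophil-like cells, but in both shared libraries the eosinophil-like class was the higher one, by 0.49 and 0.70 percentage points. Neutrophil-like cells without clusters 32 and 36 had 3.18%. Those clusters had the highest shares of the class, 15.2% and 15.4%. Leaving them out could only lower the value, which therefore does not bear on the order. The order of neutrophil-like and eosinophil-like cells was therefore not settled. Eosinophil-like cells were also the shallowest class, with a median of 555 UMIs per cell, of which 27 were from members. Erythroid cell-like cells, 87.4% of whose UMIs were globin, had 0.508%. Outside globin, mitochondrial genes and Malat1 they had 4.23%, which was still the lowest of the 20 classes.

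**Figure D1:**
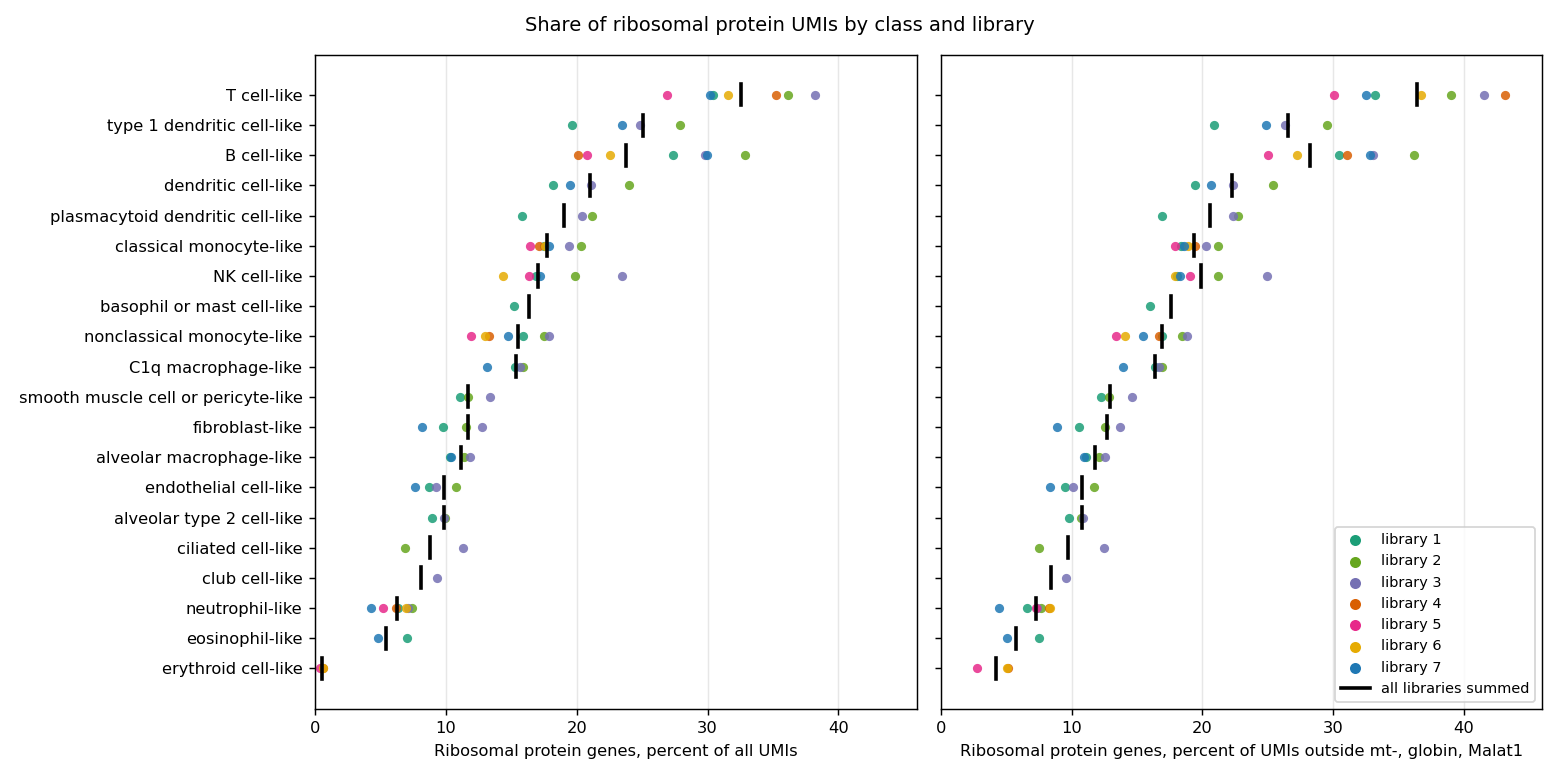
Share of UMIs from the 86 genes in each of 20 marker-defined classes, as a percent of all UMIs (left) and of UMIs outside mitochondrial genes, globin genes and Malat1 (right). Points are libraries with at least 30 cells of the class and black bars are all libraries summed. T cell-like cells lie at the top with 32.5% and erythroid cell-like cells at the foot with 0.508%, and taking out globin moves the points of libraries 4, 5 and 6 to the right.

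The order of most classes was the same in every library they shared. Among 138 pairs of classes that shared at least 2 libraries with at least 30 cells of both, 128 had the same order in every shared library, while 35 further pairs shared a single library. Of the 66 pairs with at least 4 shared libraries, 3 changed order: NK cell-like against classical monocyte-like, NK cell-like against dendritic cell-like and alveolar macrophage-like against fibroblast-like cells. The share also moved with depth within a class, by amounts that differed between classes. In 4 equal bins of cells by UMIs, pooled over libraries, it was from shallowest to deepest 25.8%, 24.2%, 23.0% and 23.4% in B cell-like cells. In alveolar macrophage-like cells it was 10.3%, 11.1%, 11.1% and 11.3%. In T cell-like cells it was 27.9%, 32.9%, 35.4% and 31.997%, and in endothelial cell-like cells 8.01%, 9.03%, 9.87% and 10.7%. Within single libraries the share of B cell-like cells mostly moved the other way. Its correlation (rho) with UMIs was 0.32, 0.37, 0.31, 0.16 and 0.60 in libraries 1, 2, 3, 4 and 7. It was -0.19 and -0.24 in libraries 5 and 6, which held most B cell-like cells. In neutrophil-like cells the deepest bin had 8.46%, against 4.33%, 3.86% and 4.01% in the others, so that this bin lay above the pooled eosinophil-like value and the other bins below it. Clusters 32 and 36 of this class had medians of 10319 and 7683.5 UMIs and shares of 15.2% and 15.4%. Cluster 21 had a median of 7799 UMIs and a share of 2.18%. The part of the clusters in the deepest bin was not tested.

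Clusters of a single class differed as well. T cell-like cluster 11, led by Dapl1, Lef1 and Tcf7, genes of naive T cells, had a share of 35.8% (941 cells). T cell-like cluster 27, led by Gzmk, Xcl1 and Ccl5, genes of effector CD8 T cells, had 21.8% (309 cells). B cell-like cluster 19, led by Zbtb32 and Fcrl5, had 29.7%, cluster 1 had 24.7%, and cluster 15, with 38.5% of its UMIs from globin and no cell from libraries 1, 2, 3 and 7, had 14.2%. Outside globin, mitochondrial genes and Malat1 these B cell-like clusters had 32.8%, 27.5% and 25.4%.

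The neutrophil-like class was the least uniform. Its main cluster 6 had 3.80% (1805 cells), and cluster 21, which carried the granule genes Camp, Ngp and Ltf of younger neutrophils and 36.1% globin, had 2.18%. Clusters 32 (203 cells) and 36 (120 cells) had 15.2% and 15.4%. Cluster 36 had 4675 UMIs per 1000000 (CPM) of summed B cell markers, against 38.2 to 47.1 in the other clusters of the class, and cluster 32 had 3419 CPM of classical monocyte markers, against 1819 in cluster 6. Without these clusters the class had 3.18%, and their part in the 6.25% is seen in that difference. Whether clusters 32 and 36 hold mixed barcodes was not tested.

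Clusters of tissue cells and macrophages also had unlike shares. Endothelial cell-like clusters ranged from 7.27% in cluster 25, led by Apln and Ednrb, to 13.0% in cluster 22, which carried lymphatic markers. Fibroblast-like cluster 31, led by Lum and Dcn, had 14.7% and cluster 9, led by Inmt and Mfap4, had 11.1%. Alveolar macrophage-like clusters 4, 26 and 42 had 11.1%, 11.9% and 11.1%. Among the 7 clusters that received no name, shares ran from 10.4% in cluster 35 to 22.4% in cluster 14, led by Icos and Ctla4, genes of activated T cells, and the cluster led by Arg1 and Mmp12, both made by activated macrophages, had 11.3%. Cluster 14 (632 cells) had 4213 CPM of T cell markers, against 3652 and 4589 in T cell-like clusters 11 and 27, and 1230 CPM of ILC2 markers. The T cell-like values given here leave it out.

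**Figure D2:**
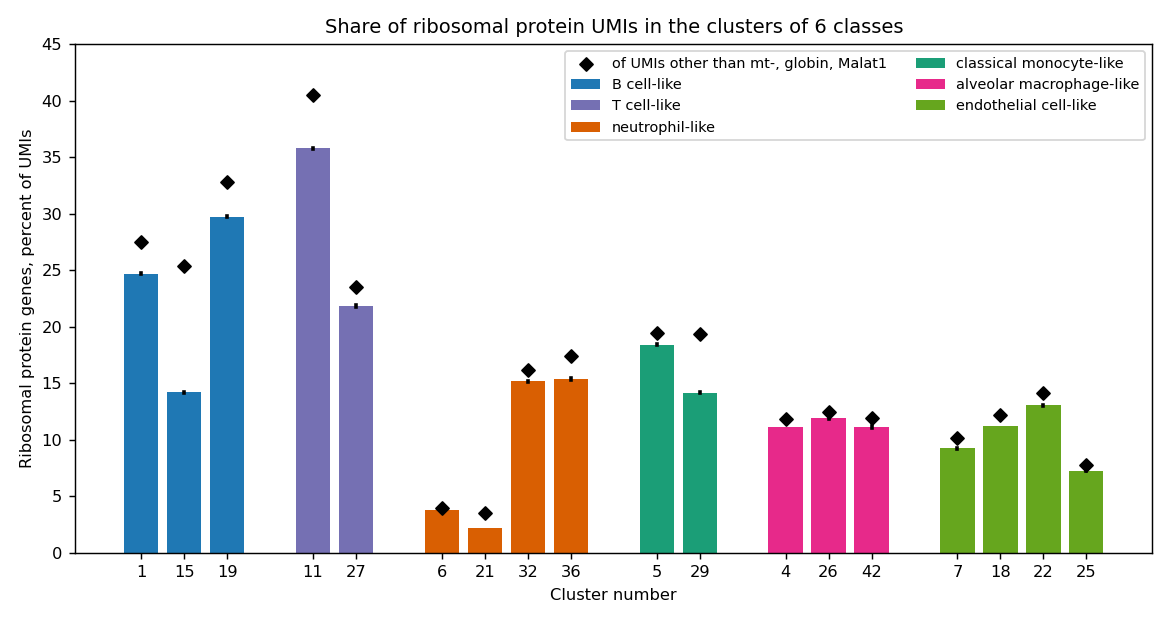
Share of UMIs from ribosomal protein genes in each cluster of 6 classes. Bars show the percent of all UMIs with exact 95% intervals for counting error, and black diamonds the percent of UMIs outside mitochondrial genes, globin genes and Malat1. The neutrophil-like clusters split into 3.80% and 2.18% on one side and 15.2% and 15.4% on the other, and T cell-like clusters into 35.8% and 21.8%.

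Cells with mitosis transcripts were compared with cells that had none. This is a range cut from a score and not a cell type. In T cell-like cells, the 41 cells with at least 3 of 10 mitosis genes had 19.4% and the 1054 cells with none had 34.6%, with 155 cells in between. Of the 41 cells, 36 belonged to cluster 27, and within that cluster the values were 18.4% and 23.4%. In alveolar macrophage-like cells the corresponding values were 11.0% (165 cells) and 11.1% (2076 cells), and the sign of the difference changed between libraries, with 9.94% against 10.4% in library 1, 11.1% against 11.4% in library 2 and 11.9% against 11.7% in library 3, with 724 cells in between. Summed over libraries, cells with mitosis genes were lower in the other classes examined too. Type 1 dendritic cell-like cells had 21.4% (46 cells) against 25.5% (196 cells), with 113 in between, and dendritic cell-like cells 18.4% (51) against 21.0% (456), with 209 in between. Endothelial cell-like cells had 8.47% (42) against 9.82% (2720), with 187 in between, and classical monocyte-like cells 16.8% (30) against 17.98% (1690), with 336 in between. Cells with mitosis genes were also the deeper ones in these classes other than the type 1 dendritic cell-like one, with a median of 12672 UMIs against 6277 in T cell-like cells, and the part of depth in these values was not tested.

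Single members differed widely in level. These libraries count a molecule once from its 3′ end, so that CPM values of different genes were compared without a length correction. Over the kept cells Rps24 had 3679 CPM, Rplp1 3450, Rps29 3115, Rpl41 2829, Rpl13 2768 and Rps27 2718, whereas the lowest core subunits were Rpl13a with 256 and Rpl31 with 453. Rpl13a overlaps the annotated gene Gm45713 on its own strand, and the sources used here do not say how reads that fit several genes were counted. Of the 9 relatives, Rpl36al had 436 CPM, Rpl22l1 329, Rps27l 264, Rps27rt 235, Rpl7l1 47.1, Rps19bp1 21.1, Rpl3l 5.65 and Rpl39l 1.25. Rpl10l, expressed in testis, had no UMI, which allows up to 0.0153 CPM. In all, 81 members had at least 100 CPM.

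Near-identical copies limit what can be said of single members. Of the 86 genes, 16 shared no 50-base stretch of the last 400 bases of their transcript with another annotated gene, 52 shared more than 50% of these stretches, and 4 (Rps12, Rpl10, Rpl21 and Rpl36a) shared all of them, mostly with pseudogenes. Rpl12, Rps24, Rpl27a, Rpl5 and Rpl3l were among those that shared none. In the annotation, 21 members overlap a gene on the opposite strand and 3 a gene on the same strand.

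B cell-like cells were set against alveolar macrophage-like cells. Of the 83 members with at least 10 CPM in the mean of the classes, 48 were at least 2-fold higher in B cell-like cells, 34 lay between, and 1, Rps27l, was at least 2-fold lower. Over all 8100 genes tested in this way, 16.4% were at least 2-fold higher and 26% at least 2-fold lower. The median fold was 2.10 over the members and 0.877 over all genes. Both subunits took part, with 25 of 46 large and 21 of 31 small subunit genes at least 2-fold higher.

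The summed value is weighted to the libraries where B cell-like shares were lower, since most B cell-like cells came from libraries 5 and 6, which held hardly any alveolar macrophage-like cells. Within libraries 1, 2, 3 and 7, which held both classes, 63, 71, 64 and 71 members were at least 2-fold higher, with median folds of 2.71, 2.82, 2.42 and 2.99. Those 4 libraries together gave 69. Shares over all genes are given for the sums only, here and in the comparisons below. How far the higher counts within libraries are particular to the members can therefore not be told.

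The highest folds belonged to Rps27rt, Rps27 and Rpl12. Rps27, a small subunit protein with a zinc finger, had 6716 CPM in B cell-like and 1443 CPM in alveolar macrophage-like cells, a fold of 4.66 (4.61 to 4.70), with 4.87 to 5.61 in the 4 libraries. Its copy Rps27rt had 622 and 120 CPM, a fold of 5.21 (5.04 to 5.38), and reads of the pair could not be told apart with certainty. Rpl12, which sits at the base of the ribosomal stalk, had 4292, 4568, 4296, 3171, 3172, 3341 and 3834 CPM in B cell-like cells of libraries 1 to 7, and 777, 957, 967 and 859 CPM in alveolar macrophage-like cells of libraries 1, 2, 3 and 7. The groups did not overlap, and the fold of the sums was 3.85 (3.80 to 3.90).

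At the other end, Rps27l had 115 CPM in B cell-like and 470 CPM in alveolar macrophage-like cells, a fold of 0.246 (0.237 to 0.255), and it was lower in B cell-like cells in each of the 4 libraries, with folds of 0.216 to 0.436. Rps19bp1, which encodes a protein that binds Rps19 and is no ribosomal subunit, had a fold of 0.840 (24.5 against 29.2 CPM), and Rpl7l1 a fold of 0.895 (57.9 against 64.7 CPM).

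T cell-like cells were set against neutrophil-like cells. Here 80 of 83 members tested were at least 2-fold higher in T cell-like cells and 0 at least 2-fold lower, where over all 7321 genes 35.1% were at least 2-fold higher and 18.6% at least 2-fold lower. The 80 included all 46 large and 30 of 31 small subunit genes. The median fold was 5.32 over the members and 1.39 over all genes. Library by library, 79, 79, 80, 81, 81, 79 and 80 members were at least 2-fold higher, with medians of 4.91, 5.06, 5.45, 5.72, 5.39, 4.68 and 7.56. Without neutrophil-like clusters 32 and 36, those of high share in the class, the count was 82. Rpl7l1, with a fold of 1.60, was then the single member within 2-fold. The folds of single members given below for this comparison include these clusters unless stated otherwise.

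Rpl12 also led this comparison. It had 5638, 6241, 7080, 6583, 4596, 5853 and 4876 CPM in T cell-like cells of libraries 1 to 7 and 301, 401, 374, 471, 458, 731 and 214 CPM in neutrophil-like cells. The classes did not overlap, and the sums gave a fold of 13.0 (12.7 to 13.4). Rpl3, a core protein near the peptidyl transferase centre, followed with 2788 against 310 CPM, a fold of 9.01. Rps18, a small subunit protein of the head, came next with 5114 against 597 CPM, a fold of 8.56. The genes of these 3 overlap another gene on the opposite strand (Lrsam1, Syngr1 and Vps52). Leaving out the neutrophil-like clusters of high share gave folds of 53.9 for Rpl12, 43.2 for Rpl3, 40.9 for Rpl10a and 33.7 for Rps18. The size of the folds and the place of Rps18 therefore rest on the cells taken, which the counting interval does not cover.

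The lowest folds were those of Rpl7l1 with 1.31 (1.13 to 1.52), Rps27l with 1.38 (1.27 to 1.501) and Rps9 with 1.73 (1.71 to 1.76). Rps9, known for a role in the accuracy of decoding, had 5006, 4473, 4896, 4237, 3311, 3786 and 3898 CPM in T cell-like and 3055, 3288, 2892, 1782, 2110, 2273 and 2399 CPM in neutrophil-like cells. In the sums it was the single core subunit tested within 2-fold of the T cell-like level, but this rests on the cells taken: the fold was 2.38 in library 4 and 2.01 over all libraries without neutrophil-like clusters 32 and 36.

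Eosinophil-like cells were set against C1q macrophage-like cells. The study counted C1qa, Ms4a7 and C3ar1 among the genes expressed by its eosinophil clusters, and here these genes are among those that lead the C1q macrophage-like cluster. Whether the study's eosinophils include these cells was not tested. Of the 83 members tested, 69 were at least 2-fold lower and 0 at least 2-fold higher in eosinophil-like cells, where over all 7789 genes 14.1% were lower and 28.2% higher. The median fold was 0.283 over the members and 1.27 over all genes. Library 1 gave 54 members lower and 2 higher, and library 7 gave 70 lower. The 2 higher were Rps19bp1 and Rpl7l1, with folds of 6.14 and 3.01 in library 1. They had 5 and 8 UMIs in all eosinophil-like cells, so that these folds lie at or near the floor of 3 counts. The counts are thin, since eosinophil-like cells held 171048 UMIs in all, and the summed count fell to 43 without library 7.

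Rpl10, a large subunit protein that joins late in assembly, had the lowest fold, 0.085 (0.060 to 0.117). It had 522 and 148 CPM in eosinophil-like cells of libraries 1 and 7 and 2694, 2576, 2645 and 1762 CPM in C1q macrophage-like cells of libraries 1, 2, 3 and 7. Rpl35 (87.7 against 853 CPM) and Rpl3 (164 against 1432 CPM) followed with folds of 0.103 (0.058 to 0.170) and 0.114 (0.076 to 0.165). These intervals overlap with that of Rpl10, so that the order is not settled. The acidic stalk protein gene Rplp2 went the other way within this comparison, with 2420 and 2742 CPM in eosinophil-like cells and 2105, 2305, 2236 and 2552 CPM in C1q macrophage-like cells, a fold of 1.21 (1.10 to 1.33). Rps19bp1 and Rpl7l1 had 5 and 8 UMIs in eosinophil-like cells, and their folds of 1.195 (0.38 to 2.84) and 0.893 (0.38 to 1.78) left the direction unsettled.

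**Figure D3:**
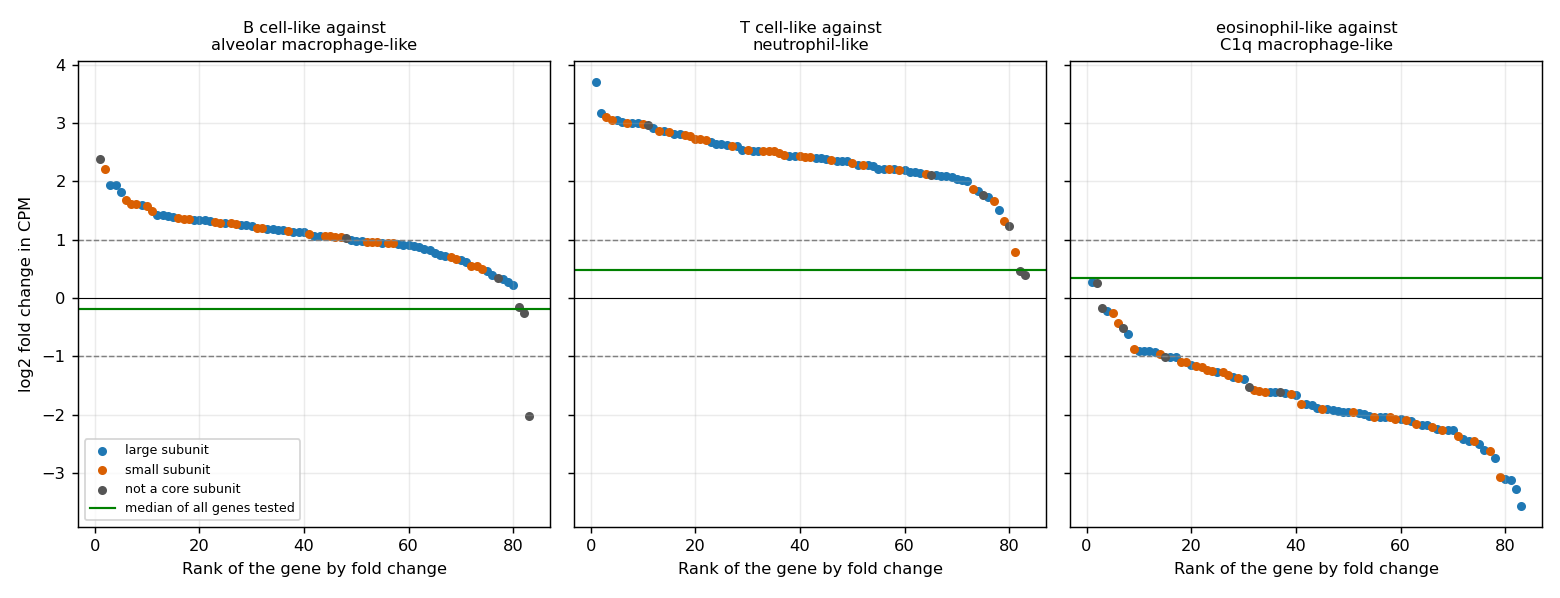
Members ranked by fold of CPM in 3 comparisons of classes, on a log2 scale. Blue points are large subunit, orange small subunit and gray the relatives that are not core subunits, dashed lines mark a 2-fold difference and the green line the median over all genes tested. Most members lie on one side of the green line in each comparison, with 48, 80 and 69 of 83 beyond 2-fold in the direction of the class with the higher share.

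The make-up of the ribosomal protein transcripts was far steadier than their total. Over the 16 classes with at least 200 cells, the share of UMIs differed 64.1-fold between the highest and the lowest class, 6.001 on the log2 scale, and 8.597-fold (3.104 on the log2 scale) as a share of the UMIs outside mitochondrial genes, globin genes and Malat1. The percentage that a single member took of the member UMIs had a median range of 1.03 on the log2 scale over the 81 members at 100 CPM or more, from 0.51 to 3.43. Erythroid cell-like and eosinophil-like cells set many of these ranges. Without them the share differed 5.20-fold (2.38 on the log2 scale) and the median range of a member was 0.69.

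The ratio of large to small subunit UMIs was 1.15 over the kept cells and 1.11 to 1.18 over libraries. It lay between 1.05 and 1.25 in 17 classes, with 1.10 in T cell-like and B cell-like cells, 1.24 in alveolar macrophage-like cells, 1.35 in ciliated and club cell-like cells and 1.495 in erythroid cell-like cells.

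The member with the widest range was Rps27l, which took 0.42% of member UMIs in alveolar macrophage-like and 0.04% in T cell-like cells, a ratio of 10.8 (10.1 to 11.5), with the same order in all 4 libraries that held both. Rpl41, the smallest ribosomal protein, came next with 8.17% in erythroid cell-like and 1.41% in nonclassical monocyte-like cells. Its erythroid values in libraries 4, 5 and 6 were 5.82%, 12.9% and 7.40%, all above the highest T cell-like library with 1.93%.

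Rpl12 took 1.85%, 1.73%, 1.85%, 1.87%, 1.71%, 1.85% and 1.62% of member UMIs in T cell-like cells of libraries 1 to 7. In nonclassical monocyte-like cells it took 0.61%, 0.64%, 0.62%, 0.50%, 0.58%, 0.65% and 0.46%. The classes did not overlap in any library. B cell-like cells lay just below the T cell-like range with 1.28% to 1.58%, and alveolar macrophage-like cells had 0.76% to 0.84%.

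Rps9 ran against this pattern. It took 4.83%, 4.43%, 4.07%, 2.89%, 4.03%, 3.27% and 5.57% of member UMIs in neutrophil-like cells of libraries 1 to 7, and 5.20% and 5.27% in eosinophil-like cells of libraries 1 and 7. In T cell-like cells it took between 1.199% and 1.65%, and in NK cell-like cells between 1.13% and 1.60%. These neutrophil-like and eosinophil-like values were above those of T cell-like and NK cell-like cells in every library. Within the neutrophil-like class, clusters 6 and 21 had 6.82% and 5.56% and clusters 32 and 36 had 2.34% and 1.95%, so that the latter lay nearer to monocytes and lymphocytes in make-up as well as in share. For Rpl12 the same 4 clusters had 0.33%, 0.37%, 0.80% and 1.28%.

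Rpl21 was highest in alveolar type 2 cell-like cells, with 2.499%, 2.81% and 2.74% of member UMIs in libraries 1, 2 and 3, and lowest, among classes other than eosinophil-like cells, in alveolar macrophage-like cells with 0.67%, 0.85%, 0.82% and 0.76% in libraries 1, 2, 3 and 7. Fibroblast-like cells lay between with 1.57% to 1.70%. Because the 3′ end of Rpl21 matches 72 other annotated genes, mostly pseudogenes, its level is uncertain. Rps19, a small subunit protein mutated in Diamond-Blackfan anemia, was also highest in alveolar type 2 cell-like cells with 2.81%, 2.98% and 3.04%, against 0.94% to 1.07% in NK cell-like cells.

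Erythroid cell-like and eosinophil-like cells set the extremes of the other wide members. Rplp0 took 4.97%, 3.67% and 2.599% of member UMIs in erythroid cell-like cells of libraries 4, 5 and 6, against 1.31%, 0.89% and 0.90% in B cell-like cells of the same libraries. Rplp2 took 3.45% and 5.72% in eosinophil-like cells of libraries 1 and 7, against 1.02% to 1.34% in fibroblast-like cells. Rpl10 took 0.74% and 0.31% in the former, against 1.996%, 1.88% and 2.18% in alveolar type 2 cell-like cells of libraries 1, 2 and 3. None of these pairs overlapped, but each sets the highest class of the sums against the lowest, so that a gap was likely from the choice alone.

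Rps18 took 1.43% to 1.77% of member UMIs in the 7 libraries of T cell-like cells and 0.47% and 0.34% in eosinophil-like cells. Rpl35, which lies at the exit of the nascent chain, had 0.14% and 0.18% in eosinophil-like cells, from 2 and 12 UMIs. In T cell-like cells it had 0.34% in library 1 and 0.51% to 0.68% in libraries 2 to 7, and in NK cell-like cells 0.29% in library 1 and 0.42% to 0.59% in the others. Library 1 was thus the lowest for Rpl35 in both lymphocyte classes.

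The narrowest ranges over classes, from sums over libraries, were found for Rpl34 (0.51 on the log2 scale), Rpl23 (0.55), Rps14 (0.56), Rpl38 (0.59) and Rpl27a (0.61). Narrow over classes did not mean steady over libraries. Rpl38 took 0.72% of member UMIs in T cell-like cells of library 1 and 1.08% to 1.38% in libraries 2 to 7. In B cell-like cells it took 0.69% in library 1 and 1.17% to 1.52% in the others. Rpl34 took 0.97% in T cell-like cells of library 1 and 1.13% to 1.28% in the others. Rps14, at the platform of the small subunit, took 1.48% of member UMIs in B cell-like and 2.18% in nonclassical monocyte-like cells, its extremes over 16 classes. Rpl23, which faces the small subunit, took between 1.43% and 2.09%.

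**Figure D4:**
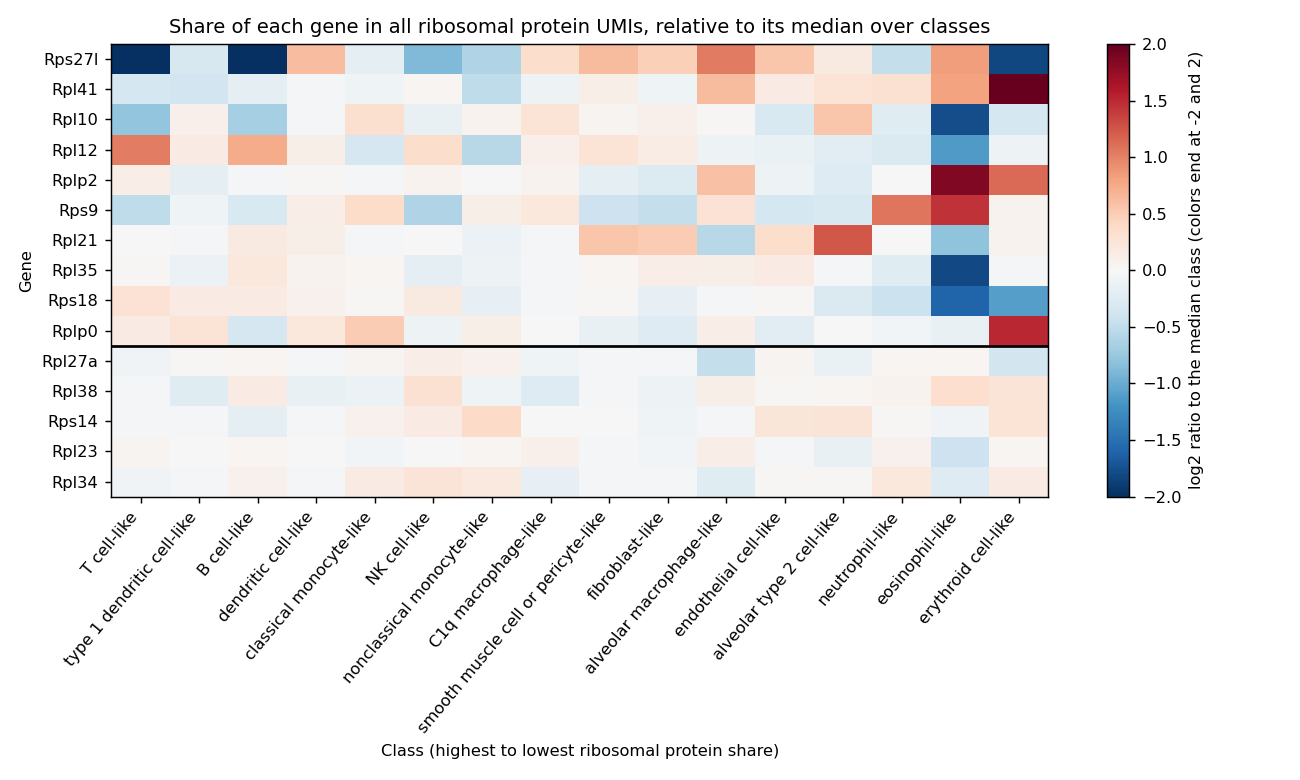
Share of member UMIs taken by the 10 genes of widest and the 5 of narrowest range, in 16 classes of at least 200 cells, as the log2 ratio to the median class (colors end at -2 and 2). Rps27l is lowest in T cell-like and B cell-like cells, and Rpl41 and Rplp0 are highest in erythroid cell-like cells. Rps9 is high in neutrophil-like and eosinophil-like cells, while the 5 narrowest genes stay near 0 throughout.

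The genes of the stalk, which recruits elongation factors to the ribosome, did not keep a fixed ratio. Rplp0, the anchor of the stalk, had 4696 CPM in T cell-like, 2428 in B cell-like, 1574 in alveolar macrophage-like and 770 in neutrophil-like cells. Rplp1 had 9312, 5046, 4297 and 1148 CPM and Rplp2 4968, 3225, 2326 and 864 CPM in the same order. In the make-up of member UMIs, Rplp1 took 3.67% to 4.22% in the 4 libraries of alveolar macrophage-like cells and 1.48% to 1.70% in the 7 libraries of classical monocyte-like cells, with no overlap. In B cell-like against alveolar macrophage-like cells, none of the 3 stalk genes reached a 2-fold difference in the sums (1.54, 1.17 and 1.39 for Rplp0, Rplp1 and Rplp2), and each was higher in B cell-like cells in all 4 libraries. For Rplp0 the folds within these libraries ran from 1.78 to 2.87, each above the fold of the sums.

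Rpl5 and Rpl11 form the 5S ribonucleoprotein particle, which binds Mdm2 when ribosome assembly fails. Rpl5 had 3487, 3374, 3970, 3448, 2668, 3630 and 2921 CPM in T cell-like cells of libraries 1 to 7 and 518, 467, 468, 413, 340, 545 and 272 CPM in neutrophil-like cells. The fold of the sums was 7.99 (7.76 to 8.22) and that of Rpl11 was 5.08 (4.95 to 5.21). Without the neutrophil-like clusters of high share these folds were 20.2 for Rpl5 and 10.4 for Rpl11. Against alveolar macrophage-like cells, the B cell-like folds were 2.26 for Rpl5 and 2.28 for Rpl11. Eosinophil-like cells had 0.415 (0.334 to 0.510) and 0.211 (0.162 to 0.270) of the C1q macrophage-like levels.

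Rps6, the substrate of the S6 kinases, and Rpsa, also known as the laminin receptor, followed the rest. Rps6 had 2863 CPM in T cell-like and 438 in neutrophil-like cells, a fold of 6.53, and 1709 in B cell-like against 771 in alveolar macrophage-like cells, a fold of 2.22. Rpsa had 5665 and 713 CPM in the first pair, a fold of 7.95, and 3628 and 1745 CPM in the second, a fold of 2.08. All of these differences had the same direction in every library that held both classes. With the neutrophil-like clusters of high share left out, the T cell-like against neutrophil-like folds were 13.7 for Rps6 and 33.2 for Rpsa.

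The levels of most members varied together over classes. Over the 15 classes of at least 200 cells other than erythroid cell-like cells, the correlation of a member's log2 CPM with that of the sum of the others had a median Pearson's r of 0.965, and 68 of 81 members had an r above 0.9. The lowest values belonged to Rps27l (0.12), Rps9 (0.60), Rplp2 (0.71), Rpl22l1 (0.80) and Rps27rt (0.82). These classes share libraries and a common total, and the values describe these cells only.

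Rps27 has 2 relatives among the members. Rps27 lies on chromosome 3 (GRCm38, chr3:90212522-90213651, minus strand), the intronless copy Rps27rt on chromosome 9 (chr9:114982366-114982739, minus strand) within Osbpl10, which runs on the other strand, and Rps27l on chromosome 9 (chr9:66946086-66949516, plus strand). The coding sequence of Rps27rt has 252 bases and differs from that of Rps27 at 0 of them, so the sequences below show Rps27 and Rps27l, which differ at 60 of 252 bases (76.2% identity). Capitals mark the bases that differ, and the annotated reference sequences are shown because they decide which of the relatives a read can be given to.
Rps27: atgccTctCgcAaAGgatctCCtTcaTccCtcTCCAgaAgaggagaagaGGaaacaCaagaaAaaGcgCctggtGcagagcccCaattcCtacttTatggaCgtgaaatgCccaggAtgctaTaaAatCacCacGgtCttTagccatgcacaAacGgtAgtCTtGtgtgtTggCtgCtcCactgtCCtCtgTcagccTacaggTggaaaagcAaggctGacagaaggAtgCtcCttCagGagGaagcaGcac
Rps27l: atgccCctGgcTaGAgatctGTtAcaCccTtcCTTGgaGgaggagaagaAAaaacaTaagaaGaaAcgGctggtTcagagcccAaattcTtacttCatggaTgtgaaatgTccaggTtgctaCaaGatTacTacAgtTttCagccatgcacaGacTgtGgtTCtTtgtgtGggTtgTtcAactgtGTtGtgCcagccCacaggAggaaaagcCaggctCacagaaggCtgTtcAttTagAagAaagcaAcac

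Of the 50-base stretches in the last 400 bases of the Rps27 transcript, 98.6% also occurred in Rps27rt and none in Rps27l. Rps27rt took between 7.2% and 9.5% of the sum of Rps27 and Rps27rt in 19 classes, with 14.2% in the erythroid cell-like class and 7.96% over all kept cells. Its CPM moved between libraries more than that of Rps27l, from 335 in library 4 to 807 in library 2 within B cell-like cells. Whether these UMIs come from the copy or from Rps27 itself was not tested.

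Rps27l, a target of p53 in the response to DNA damage, was the member whose class pattern departed most from the rest. It had 558, 429, 502 and 418 CPM in alveolar macrophage-like cells of libraries 1, 2, 3 and 7 and 724, 553, 551 and 925 CPM in dendritic cell-like cells. T cell-like cells had 141, 148, 114, 112, 157, 90.9 and 167 CPM, and B cell-like cells 121, 140, 112, 113, 121, 92.3 and 182 CPM, in libraries 1 to 7. The lymphocyte values did not overlap with those of macrophage-like and dendritic cell-like cells, although lymphocytes had the higher total of ribosomal protein transcripts. Within T cell-like cells it had 98.7 CPM in cluster 11 and 221 CPM in cluster 27. Neutrophil-like cells had 92.2 CPM.

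Rpl22l1, the paralog of Rpl22 that acts in the development of T cells and in splicing, was highest in lymphocytes. It had 750, 1064, 1128, 958, 813, 888 and 717 CPM in T cell-like cells of libraries 1 to 7 and 72.2, 143, 123, 125, 108, 139 and 61.05 CPM in neutrophil-like cells. B cell-like cells had 474 to 916 CPM over libraries. Of the sum of Rpl22 and Rpl22l1, it made up 30.1% in T cell-like, 31.8% in NK cell-like, 33.0% in fibroblast-like and 24.8% in B cell-like cells, against 13.0% in type 1 dendritic cell-like cells and 16.5% in dendritic cell-like cells. Its transcript end is shared in 58.4% of its stretches with Gm15421.

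Rpl3l, the striated muscle form of Rpl3, was detected at a low level, with its highest values in myeloid cells. Nonclassical monocyte-like cells had 31.6, 82.2, 53.2, 35.2, 69.9, 34.3 and 42.6 CPM in libraries 1 to 7 (401 UMIs in all). Neutrophil-like cells had 17.8 CPM (224 UMIs, 5.1 to 32.5 over libraries) and alveolar macrophage-like cells 13.8 CPM (485 UMIs). B cell-like and T cell-like cells had 0.16 and 0.23 CPM, from 5 and 2 UMIs. The level was not a mark of myeloid cells as such: dendritic cell-like cells had 2.26 CPM, C1q macrophage-like cells 0.26 and type 1 dendritic cell-like cells 0.19, from 19, 2 and 1 UMIs, while ciliated cell-like cells had 9.03 CPM (4.33 to 16.6) from 10 UMIs. Rpl3l ends 499 bases before Msrb1, a selenoprotein gene on the same strand of chromosome 17, and the Msrb1 level moved with it in part: 1309 CPM in nonclassical monocyte-like, 2440 in neutrophil-like and 960 in alveolar macrophage-like cells, against 37.5 in B cell-like and 40.8 in T cell-like cells. Classical monocyte-like cells, however, had 1194 CPM of Msrb1 and 5.6 CPM of Rpl3l. The part of Msrb1 transcripts in the Rpl3l counts was not tested.

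Among the remaining relatives, Rpl36al made up 34.8% of the sum of Rpl36a and Rpl36al, from 24.2% in T cell-like to 50.6% in classical monocyte-like cells. It overlaps Gm49383 on its own strand, with which it shares 73.5% of its stretches. Rpl7l1 made up 1.28% to 5.50% of its pair with Rpl7. Rpl39l had 3.97 CPM in alveolar macrophage-like cells, its coding sequence being 84.97% identical to that of Rpl39 over 153 bases.

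**Figure D5:**
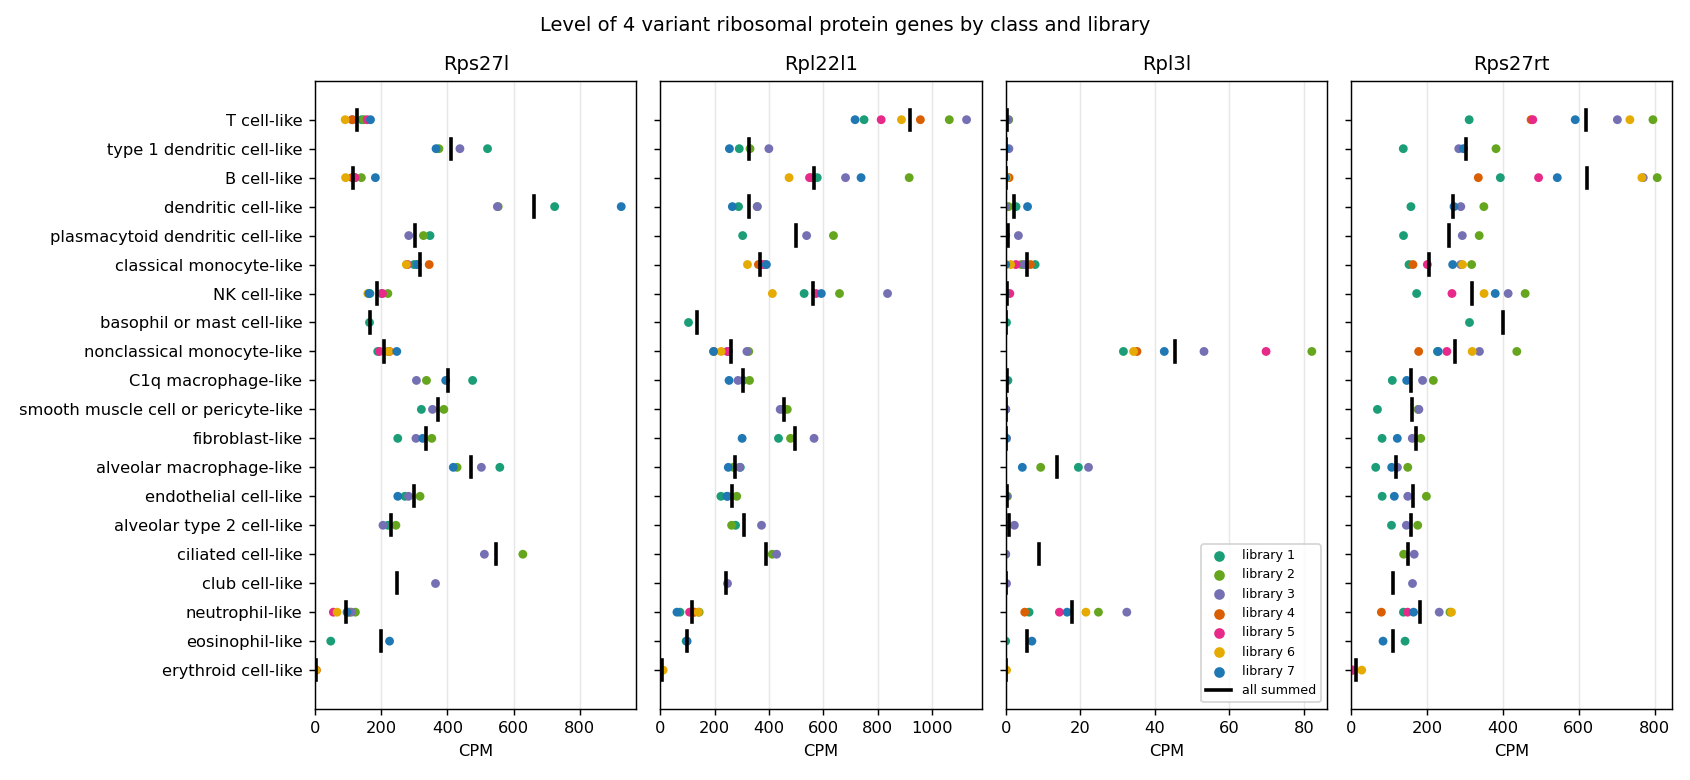
CPM of Rps27l, Rpl22l1, Rpl3l and Rps27rt by class. Points are libraries with at least 30 cells of the class and black bars are all libraries summed. Rps27l lies highest in dendritic cell-like cells, Rpl22l1 in T cell-like cells with 717 to 1128 CPM, and Rpl3l in nonclassical monocyte-like cells with 31.6 to 82.2 CPM.

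The annotated starts of core members were searched for a terminal oligopyrimidine motif. Each window below runs from 10 bases before the RefSeq start (GRCm38.p6) to 20 bases from it, so that the start is base 11. A match needed a C at the start followed by at least 4 further pyrimidines, and capitals mark the run. The first 4 hold a match, and the last 3 show members whose level or make-up stood apart and whose annotated start does not match (Rps27l by the first of its annotated starts).
Rps27: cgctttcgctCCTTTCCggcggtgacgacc
Rps18: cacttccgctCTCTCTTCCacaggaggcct
Rps6: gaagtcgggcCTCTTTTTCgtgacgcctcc
Rpl35: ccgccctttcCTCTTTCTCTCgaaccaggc
Rpl12: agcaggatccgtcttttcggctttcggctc
Rps9: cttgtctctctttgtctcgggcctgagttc
Rps27l: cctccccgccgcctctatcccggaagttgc

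In the coordinates of that build these windows are chr3:90213629-90213658 (Rps27, minus strand), chr17:33955646-33955675 (Rps18, minus strand), chr4:86857348-86857377 (Rps6, minus strand), chr2:39005112-39005141 (Rpl35, minus strand), chr2:32961702-32961731 (Rpl12, plus strand), chr7:3704031-3704060 (Rps9, plus strand) and chr9:66946076-66946105 (Rps27l, plus strand). Of 57 core members with a start in the table, 13 (22.8%) had the match at the annotated base, against 3.01% of 27025 genes. With a C and at least 5 pyrimidines allowed anywhere within 20 bases of the start, 39 of 57 (68.4%) had it, against 35.4% of all genes. A window without a match says only that the letters are not at the annotated base, and annotated starts can lie some bases from the true one.

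Genes that act with the ribosome were followed in lists. Fau and Rack1 encode ribosomal subunits but are named otherwise. Rack1 had 2965 CPM in T cell-like and 473 in neutrophil-like cells, a pattern like that of the members, whereas Fau had 5312 and 3796 CPM a difference of less than 2-fold. In B cell-like cells Fau had 5565 and Rack1 2032 CPM, against 2521 and 1296 CPM in alveolar macrophage-like cells.

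Elongation factors and other mRNAs with the same 5′ motif had medians on the same side as the members, nearer to 1. Of 16 such genes, 1 was at least 2-fold higher in B cell-like than in alveolar macrophage-like cells (median fold 1.31), a smaller share than the 16.4% of all genes, 15 in T cell-like than in neutrophil-like cells (4.06), and 12 were at least 2-fold lower in eosinophil-like than in C1q macrophage-like cells (0.390). Tpt1, the most abundant of them, had 11335 CPM in T cell-like, 6623 in B cell-like, 4351 in alveolar macrophage-like and 2901 in neutrophil-like cells, and Eef1a1, which brings aminoacyl-tRNA to the ribosome, had 6807, 4399, 3803 and 1263 CPM.

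The other lists are read against all genes tested, of which 35.1% were at least 2-fold higher and 18.6% lower in T cell-like than in neutrophil-like cells (median fold 1.39) and 16.4% higher and 26% lower in B cell-like than in alveolar macrophage-like cells (median 0.877). Of the ribosome biogenesis genes, which act in the nucleolus, 29 of 31 were at least 2-fold higher in the first comparison (median fold 4.998), among them Ncl with 445 against 108 CPM. In the second 1 of 33 was at least 2-fold higher and 1 lower (median 1.06). Mitochondrial ribosomal protein genes, whose products form the other ribosome of the cell, had 53 of 70 at least 2-fold higher and 1 lower in T cell-like cells (median 2.76), and 0 of 76 higher and 9 lower in B cell-like cells (median 0.843). Initiation factors gave medians of 2.60 in the first and 0.835 in the second, with 17 of 23 and 1 of 23 at least 2-fold higher and 3 of 23 lower in the second. Regulators of ribosomal protein mRNA such as Larp1, Eif4ebp2 and Rps6ka3 gave medians of 2.05 and 1.12, with 6 of 11 and 2 of 13 at least 2-fold higher and 1 and 2 lower. In B cell-like against alveolar macrophage-like cells, the counts of these lists past 2-fold were thus near or below the shares over all genes in either direction.

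In eosinophil-like against C1q macrophage-like cells, 4 of 26 biogenesis genes, 13 of 71 mitochondrial ribosomal protein genes and 8 of 23 initiation factors were at least 2-fold lower, with medians of 0.745, 0.786 and 0.785, and 3 of 11 regulators were at least 2-fold higher, with a median of 1.26. Over all genes 14.1% were lower and 28.2% higher, with a median of 1.27. The regulators, and the counts of biogenesis and mitochondrial ribosomal protein genes that were lower, lay near these values. At least 2-fold higher, however, were 0 of the biogenesis genes, 0 of the mitochondrial ribosomal protein genes and 0 of the initiation factors. The medians of these lists were also below that of all genes. Both the values over all genes and those of lists of low level depend in part on the floor of 3 counts in eosinophil-like cells. The ribosomal protein genes had the lowest median of the lists named here in that comparison, with 69 of 83 lower and a median of 0.283.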

How the data were processed

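Single-cell 3′ libraries of mouse lung were made on the 10x Chromium system, as version 3 by the labels and version 2 by the supplementary methods. The authors deposited 1 matrix of UMI counts per gene and barcode, made with Cell Ranger and STAR on mm10 according to the submitters' processing notes, and the matrix header names software version 3.1.0. The sources used here do not say how reads that fit several genes were counted. These counts were used as deposited.

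Following the study's filter, barcodes with mitochondrial genes over 10% of UMIs, or with UMIs or genes beyond 2 SD of the mean (over 21736.3 UMIs or 4961.46 genes), were left out, which kept 31844 of 37344. No doublet caller was run, so doublets were limited only by the upper bounds. After scaling each cell to 10000 UMIs and taking logarithms, 2000 variable genes without the members gave 30 components, mutual nearest neighbors served to align the libraries, and Leiden clustering was run with 20 neighbors at resolution 0.8. Clusters were named from 30 marker lists by score. A minimum score of 2, the rule that an ILC2 name needs Cd3e in under 10% of cells, and the merging of lymphatic with other endothelial and of mature with other dendritic clusters were added after the clusters were seen. Cluster names rebuilt here can differ from the study's.

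UMIs were summed over cells. Shares have exact Clopper-Pearson intervals, CPM exact Poisson intervals and folds conditional binomial intervals, at 95% and for counting error only. Library values need at least 30 cells. A gene was tested for fold with at least 10 CPM in the mean of both classes and called beyond 2-fold, with counts below 3 set to 3. No test across libraries was made, because no source ties libraries to samples. The calculations were tested on simulated data.

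Members at 100 CPM or more were ranked by the range of the log2 share of member UMIs over classes of at least 200 cells, and the 10 widest and 5 narrowest were named, with the relatives and their partners, the stalk and 5S genes, Rpsa, Rps6, Rps19 and Rpl10, and in each comparison the 3 highest and 3 lowest folds. Of each list the 3 genes with most UMIs could be named, and 1 result is not reported here. Other clusters and genes named were chosen after their values were seen, as were the single-cell settings on libraries 1, 2, 3 and 7 and on neutrophil-like clusters. The members, lists and comparisons were chosen with earlier results of these data known. Annotation came from GENCODE M21 and RefSeq, both on GRCm38. Alternatives covered the filters, the denominator, the clustering, the class rule, the fold and CPM limits, and leaving out each library. Python 3.11.15 was used with numpy 2.4.6, scipy 1.17.1, pandas 2.3.3, scikit-learn 1.9.0, python-igraph 0.11.9, leidenalg 0.10.2 and matplotlib 3.10.9.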

Additional observations from a re-analysis of the deposited data

Results flagged for a closer look

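Symbols of the same stems that end in -ps, which the selection left out as pseudogenes, were given counts: summed over the kept cells they had 147 CPM, from 35448 UMIs, or 0.0147% of all UMIs, above the limit that a count of 0 allows. Whether these UMIs come from the pseudogenes or from the members was not tested. Rpl10-ps3 alone had 89.8 CPM, and all 50-base stretches of the transcript end of Rpl10 occur in it, so that its UMIs cannot be told apart from those of Rpl10 by that part of the sequence.

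Barcodes outside the filters held ribosomal protein transcripts as well. The 3726 barcodes with mitochondrial genes over 10% of UMIs, with a median of 2100.5 UMIs, had a share of 10.3%. Over libraries 1, 2, 3, 5, 6 and 7 it was 10.4%, 8.48%, 9.52%, 17.8%, 17.4% and 7.42%, and 15.9% in the 8 such barcodes of library 4. The 1774 barcodes that passed the mitochondrial limit and failed the upper limits on UMIs or genes had 12.7%.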

How the results depend on the processing

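Shares are given for all kept, B cell-like, alveolar macrophage-like and neutrophil-like cells, which had 13.8%, 23.8%, 11.1% and 6.25%. The filters gave 11.6%, 18.05%, 11.4% and 5.92% with a mitochondrial limit of 5%, 13.5%, 23.9%, 11.1% and 5.81% without the top 5% of cells by UMIs of each library, and 13.6%, 23.8%, 11.2% and 5.33% with the mitochondrial limit alone. The denominator gave 14.4%, 25.4%, 11.7% and 6.34% without mitochondrial genes, 16.1%, 25.6%, 11.1% and 7.02% without globin, and 17.3%, 28.2%, 11.8% and 7.30% without these and Malat1. The median cell had 12.01%, 24.4%, 10.9% and 3.54%. Without the 9 relatives the shares were 13.7%, 23.6%, 11.0% and 6.19%, and with -ps symbols 13.8%, 23.8%, 11.1% and 6.25%. Leaving out each library gave 13.5% to 14.2%, 23.2% to 25.3%, 10.9% to 11.3% and 6.06% to 6.54%. The median over libraries was 14.5%, 27.4%, 10.9% and 6.32%. Libraries 1, 2, 3 and 7 alone had 14.97%, 29.96%, 11.1% and 6.35%, and libraries 4, 5 and 6 alone 11.8%, 21.6% and 6.17%, with too few alveolar macrophage-like cells for a value.

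B cell-like, alveolar macrophage-like and neutrophil-like shares under other clusterings were 23.7%, 11.2% and 4.70% at resolution 0.4, 23.9%, 11.1% and 7.41% at resolution 1.5, 23.7%, 11.1% and 7.29% with the members kept in, 23.7%, 11.2% and 5.02% without alignment, and 25.01%, 10.9% and 5.43% with cells named by their own markers. Neutrophil-like cells without clusters 32 and 36 had 3.18%. The order of these 3 classes was the same in every setting. Small or shallow classes moved more, from 6.45% (mitochondrial limit alone) to 16.1% (cells named by their own markers) in club cell-like, 5.20% to 10.6% in ciliated cell-like, 4.48% to 8.44% in eosinophil-like and 0.392% to 4.23% in erythroid cell-like cells. The T cell-like share ran from 27.9% to 36.4%. The 48 members at least 2-fold higher in B cell-like than in alveolar macrophage-like cells became 10 at a fold of 3 and 43 to 59 without each library. The count in T cell-like against neutrophil-like cells stayed within 77 to 82, and that in eosinophil-like against C1q macrophage-like cells was 43 to 76, lowest without library 7. These counts are given without the share over all genes in the same setting, and the cause of these shifts was not tested.

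No paired analysis was possible because no column of the matrix is tied to a sample or replicate. Depth limits single members in the eosinophil-like, erythroid cell-like and club cell-like classes, Rpl3l and Rpl39l in most classes, and any statement on treatments, since 7 libraries of unknown origin cannot be set against the 4 titled samples.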
